A study of Bos taurus with 6 samples.

Results

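Mitochondrial ribosomal protein genes are the nuclear genes for the proteins of the ribosome inside mitochondria, with symbols that begin with MRPL for the large subunit and MRPS for the small subunit. They were chosen by symbol, as every gene named MRPL or MRPS followed by a number, which gave 78 of the 23475 genes listed, 49 MRPL and 29 MRPS genes. The mitochondrial ribosome translates the few messenger RNAs of mitochondrial DNA, which encode core subunits of the respiratory chain and of ATP synthase. Its ribosomal RNAs are transcribed inside the organelle, whereas its proteins are made in the cytosol and imported, so each particle is built from the products of both genomes. In fat cells, mitochondria supply ATP and the citrate from which fatty acids are made, and their content increases as preadipocytes differentiate.

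RNA was sequenced from Bos taurus cells of subcutaneous fat, labelled adipocyte, that had been transfected with bta-miR-484 agomir (3 samples) or with agomir NC (3 samples). All 6 samples were collected 48 h after transfection and had been grown in high-glucose DMEM with fetal bovine serum. The agomir is a stabilised synthetic RNA that supplies the miRNA to the cell, and agomir NC is its negative control. The study's methods describe the cells as primary preadipocytes, with tissue from 3 calves, and give n = 3 for the RNA sequencing. No source used here says if a group's 3 samples were separate animals or cultures. The p-values therefore measure only the spread between these samples, which may be technical. Levels are FPKM, that is, fragments scaled to transcript length and to the mapped fragments of the library, so the levels of different genes can be compared per length. FPKM holds no read numbers, the depth of each library is unknown, and no counting error can be given.

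The label was compared with marker genes. Of 8 markers of preadipocytes and fibroblasts, all were abundant, led by the collagen gene COL3A1 at 7428 to 7916 FPKM over the 6 libraries, and the receptor gene PDGFRA lay at 162 to 172 FPKM. The adipocyte markers ADIPOQ, CIDEC and LEP had at most 0.230 FPKM in any library, and the most abundant of the 6 adipocyte markers, LPL, averaged 3.73 FPKM. The defining markers of mature adipocytes were thus at or near 0, so the label adipocyte is not used for the cells here. Endothelial (PECAM1, CDH5, KDR), immune (PTPRC, CD3E), muscle (MYOD1, MYOG, DES) and epithelial (EPCAM, CDH1) markers averaged less than 0.5 FPKM, the minimum for testing, and MYOD1 and MYOG were listed at 0 in every library. The exceptions were VWF at a mean of 3.39 FPKM, CD14 at 6.27 FPKM and CD68 at 0.906 FPKM, and the muscle marker PAX7 was not analysed here. In RNA from whole cultures, fewer cells of a type and less RNA per cell cannot be told apart.

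All 78 genes were expressed. Their mean FPKM over the 6 libraries ran from 4.77 for MRPL22 to 49.4 for MRPL17, a 10.4-fold range, with a median of 18.3 FPKM against 8.36 FPKM for the 12422 genes that averaged 0.5 FPKM or more. Of the 78 genes, 54 lay between 10 and 30 FPKM, 13 lay under 10 and 11 lay at 30 or more. The MRPL genes had a median of 19.1 FPKM and the MRPS genes a median of 18.2 FPKM. The proteins enter the particle mostly as single copies. MRPL12, the stalk protein that is present in several, ranked at place 30 of 78 with a mean of 19.96 FPKM.

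MRPL17, at the rim of the tunnel through which the new chain leaves the large subunit, had the highest level. Its FPKM was 51.6, 47.2 and 50.7 in agomir replicates 1, 2 and 3 and 48.5, 49.5 and 49.2 in agomir NC replicates 1, 2 and 3, the order used for all genes below. The groups overlapped, and the log2 fold change was 0.021 (standard error 0.047), on the log2(FPKM + 0.5) scale used throughout, on which agomir NC is subtracted from agomir. Next in level came MRPL9 and MRPL27, with means of 37.0 and 36.5 FPKM. At the other end, MRPL22, which lines the same tunnel, was at 4.47, 4.64 and 4.68 FPKM with the agomir, against 6.42, 3.51 and 4.87 FPKM with agomir NC. Both its highest and its lowest library were agomir NC libraries, and the log2 fold change of -0.057 (standard error 0.16) turned to 0.14 without agomir NC replicate 1 and was -0.26 without agomir NC replicate 2. MRPS9 and MRPL48 were the other low members. MRPL48, a protein of the central protuberance, was at 6.30, 7.01 and 6.27 FPKM with the agomir, against 5.96, 6.07 and 6.17 FPKM with agomir NC. All agomir libraries of MRPL48 lay above all agomir NC libraries, by less than the spread between replicates, with a log2 fold change of 0.096 (standard error 0.075) and an adjusted limma p of 0.677, and the log2 fold change was 0.047 without agomir replicate 2.

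Summed over the 78 genes, the level was 1515, 1508 and 1556 FPKM in the agomir libraries and 1496, 1369 and 1479 FPKM in the agomir NC libraries. Every agomir sum lay above every agomir NC sum, and agomir NC replicate 2 was well below the rest. On average the agomir libraries summed to 1526 ± 25.9 FPKM and the agomir NC libraries to 1448 ± 68.9 FPKM (SD, n = 3 each), or 1.05-fold. For MRPL genes alone the sums were 979, 964 and 1003 FPKM with the agomir, against 975.5, 892 and 956.5 FPKM with agomir NC, and the groups overlapped. MRPS genes summed to 537, 544 and 552 FPKM with the agomir, against 520.5, 476 and 522 FPKM with agomir NC, without overlap. The ratio of the MRPL sum to the MRPS sum was 1.82, 1.77 and 1.82 with the agomir and 1.87, 1.87 and 1.83 with agomir NC. Those ratios did not overlap between the groups, and the mean ratio with the agomir was 0.971 times that with agomir NC.

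Agomir NC replicate 2 and agomir replicate 3 stood apart for these genes. In agomir NC replicate 2, 39 of the 78 members had their lowest value of the 6 libraries, whereas 21.4% of all genes tested had theirs there. Its median deviation from the mean of the 6 libraries was -0.10 for MRPL genes and -0.13 for MRPS genes on the log2 scale, and -0.016 for all genes tested. Agomir replicate 3 held the highest value of 27 members, against 14.2% of all genes tested. The main counts are therefore also given without these libraries. No pair of libraries shared an identical value above 0.

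**Figure D1:**
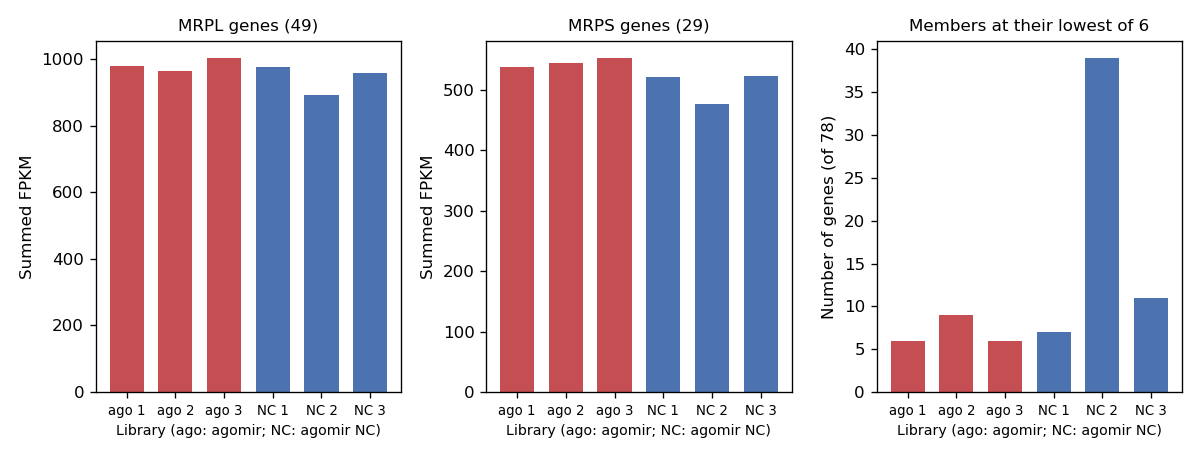
Summed FPKM of the 49 MRPL genes (left) and of the 29 MRPS genes (middle) in each library, with the number of the 78 members that had their lowest value in that library (right); ago is agomir and NC is agomir NC. The lowest sums are those of agomir NC replicate 2, 892 and 476 FPKM, where 39 members were at their lowest.

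Agomir and agomir NC were compared gene by gene with limma's moderated test, two-sided, across the 12422 genes. No member passed an adjusted p of 0.05, against 1 of all genes tested (0.00805%), and the lowest adjusted p among members was 0.261, for MRPS12. At an unadjusted limma p under 0.05, 19 members (24.4%) were higher with the agomir, where 6.63% of all genes tested were. Only MRPS12 (1.28%) was lower at that threshold, where 4.31% of all genes tested were. In 18 members (23.1%) every agomir library lay above every agomir NC library, against 10.9% of all genes tested, and in 2 members (2.56%), MRPS12 and MRPL40, it lay below, against 6.36%. The 20 genes past the unadjusted threshold had adjusted limma p-values between 0.261 and 0.442. An exact two-sided permutation test over the 20 labelings of 3 and 3 libraries cannot go below p = 0.1.

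Differences were small and mostly in the same direction. The log2 fold change was positive for 59 of the 78 genes (75.6%), against 55.1% of all genes tested, and it ran from -0.23 (MRPS12) to 0.36 (MRPL33). Its median was 0.083 over the members and 0.013 over all genes tested. Members come from the same 6 libraries and are not replicates of each other. Their median SD within groups was 0.11 on the log2 scale, beside 0.099 for all genes tested.

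By symbol, 9 of the 49 MRPL genes (18.4%) were higher at an unadjusted limma p under 0.05 and 0 were lower. They had 35 positive log2 fold changes and a median of 0.073. Among the 29 MRPS genes, 10 (34.5%) were higher and 1 was lower, with 24 positive and a median of 0.11. Of the MRPS genes that were higher, MRPS30 is a large subunit protein and MRPS36 is not a protein of the mammalian mitochondrial ribosome. Beside these shares stand 6.63% higher and 4.31% lower over all genes tested. Without agomir NC replicate 2, the MRPL genes had 4 higher and 4 lower and the MRPS genes 5 higher and 1 lower, and the number of MRPL genes higher was 3 without agomir replicate 3 and 3 without the variance trend. Over all genes tested, 5.28% were higher and 4.29% lower without agomir NC replicate 2. The shares higher were 5.24% without agomir replicate 3 and 6.12% without the variance trend. The difference between the MRPL and MRPS genes was not tested. Groups without overlap, all agomir above, were found for 9 MRPL and 9 MRPS genes, against 10.9% of all genes tested. The medians were positive under every scaling tried, at 0.050 to 0.057 for MRPL and 0.086 to 0.095 for MRPS genes. Median-ratio scaling of the libraries evened out the calls over all genes, 5.29% higher and 5.68% lower, and left 15 members higher and 1 lower.

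The counts changed with each library left out. Without agomir NC replicate 2, 9 members were higher and 5 were lower (MRPL2, MRPL30, MRPL50, MRPL52 and MRPS12), against 5.28% and 4.29% of all genes tested. The number of positive log2 fold changes was then 48, and the medians were 0.023 for MRPL and 0.080 for MRPS genes. Leaving out agomir replicate 3 gave 9 higher and 3 lower members (MRPL41, MRPS12 and MRPS25), against 5.24% and 3.62% of all genes tested. Leaving out agomir replicate 2 gave 16 higher and 2 lower members (MRPS12 and MRPS17), against 4.47% and 3.62%. Without agomir NC replicate 1 the number higher was 22, against 6.68%, without agomir replicate 1 it was 17, against 5.82%, and without agomir NC replicate 3 it was 16, against 5.93%, each with MRPS12 as the member that was lower. Under each of the other settings and with each library left out, 6 members kept an unadjusted limma p under 0.05: MRPS28, MRPS36, MRPL35, MRPS18B and MRPL10, all higher, and MRPS12, lower.

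A few cell type markers were past the same threshold. DCN is a proteoglycan of the fibroblast matrix. It was at 2840.0, 2899 and 2850.0 FPKM with the agomir, against 2991, 3102 and 3248 FPKM with agomir NC. All agomir libraries lay below, and DCN was the 1 of 8 fibroblast markers called, where 4.31% of all genes tested were lower. No fibroblast marker was lower with no filter, without the variance trend, after quantile normalization, or without agomir replicate 1 or agomir replicate 3. Without agomir NC replicate 1, 2 were lower, against 4.8% of all genes tested. Cyclic loess normalization gave 2 higher and 0 lower, against 5.29% and 5.46% of all genes tested. Among adipocyte markers, FABP4 was lower, with overlapping groups, as 1 of the 3 that were tested, against 4.31% of all genes tested. The other 2, PLIN1 and LPL, had positive log2 fold changes with all libraries. No adipocyte marker was lower without agomir replicate 3 or agomir NC replicate 1. The 6 adipocyte markers summed to 7.05, 7.97 and 6.66 FPKM with the agomir, against 8.51, 7.29 and 7.95 FPKM with agomir NC. No endothelial or immune marker tested was past the threshold. The part of cell makeup in the counts of ribosomal protein genes was not tested.

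**Figure D2:**
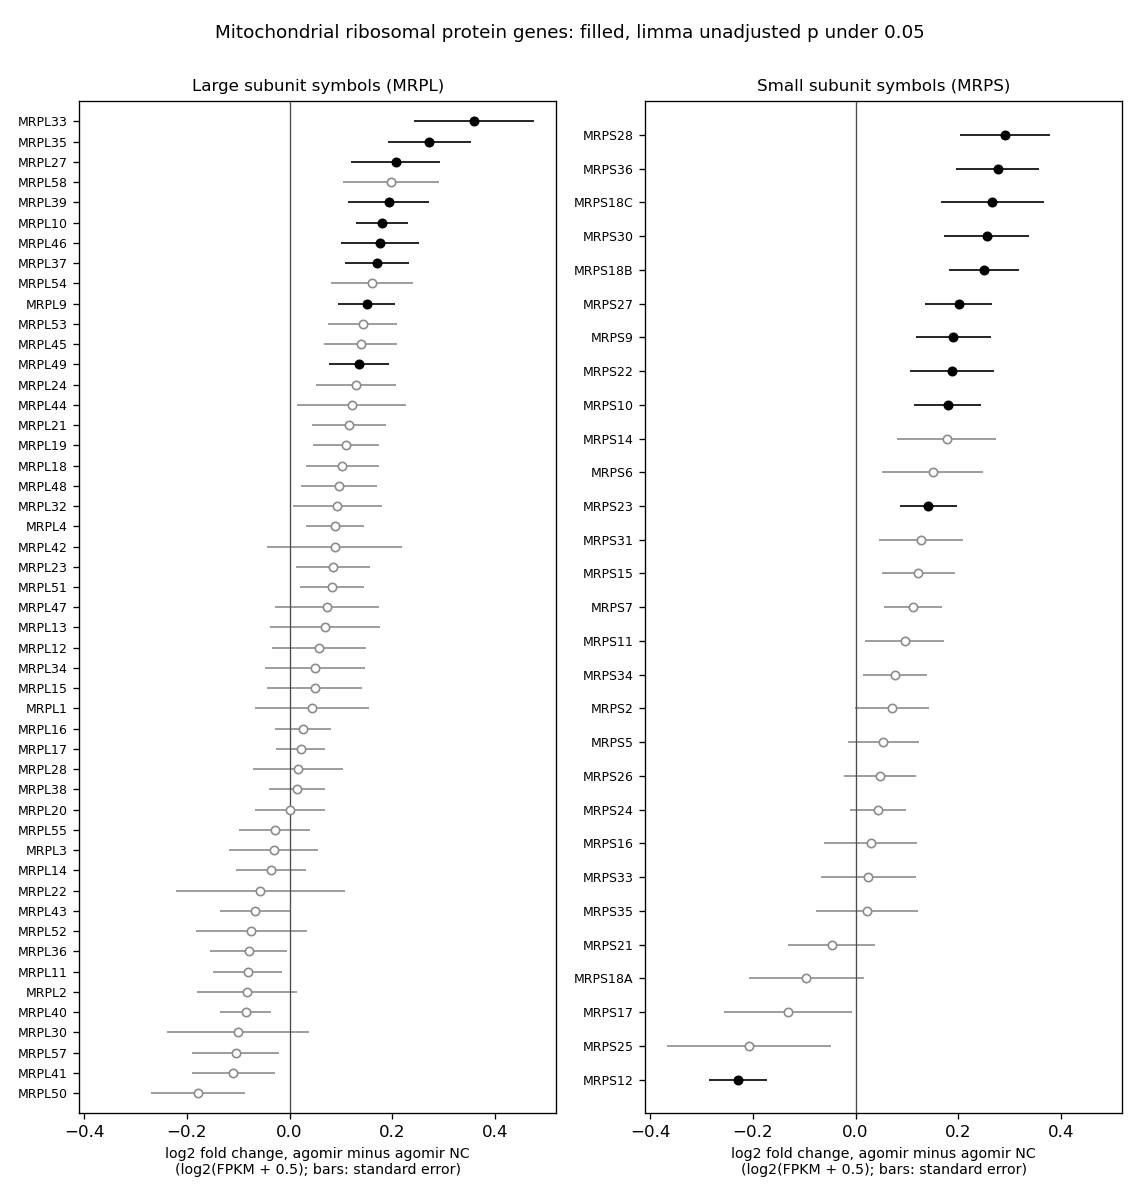
Log2 fold change (agomir minus agomir NC, on log2(FPKM + 0.5)) of each MRPL gene (left) and MRPS gene (right), sorted by size, with bars for the standard error; filled points have an unadjusted limma p under 0.05. Of the 78 genes, 59 lie right of 0, and MRPS12, at -0.23, is the filled point on the left.

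The large subunit has a core of proteins with counterparts in bacterial ribosomes, for which 30 MRPL genes were listed. Of these, 5 were higher at an unadjusted limma p under 0.05 (MRPL33, MRPL35, MRPL27, MRPL10 and MRPL9) and 0 were lower, against 6.63% and 4.31% of all genes tested, and 2 were higher without agomir replicate 3. The median log2 fold change was 0.053, with 22 positive, and the levels ran from 4.77 to 49.4 FPKM. With a library left out the median lay between 0.022, without agomir NC replicate 2, where 17 were positive, 3 higher and 2 lower, and 0.098, without agomir NC replicate 1. Over all genes tested, 5.24% were higher without agomir replicate 3, and 5.28% were higher and 4.29% lower without agomir NC replicate 2. MRPL33 and MRPL35 are small proteins of this core. MRPL33 was at 8.36, 7.02 and 9.84 FPKM with the agomir, against 7.09, 5.83 and 6.29 FPKM with agomir NC. Agomir replicate 2 lay just under agomir NC replicate 1, so the groups overlapped, although the log2 fold change of 0.36 (standard error 0.12) was the highest of all members. Its unadjusted p in limma was 0.0129 with all libraries and above 0.05 without agomir replicate 3, where the log2 fold change was 0.25. MRPL35 was at 21.5, 22.8 and 24.3 FPKM with the agomir, against 19.6, 16.6 and 20.4 FPKM with agomir NC. No agomir library of MRPL35 reached down to the agomir NC libraries, and they averaged 22.8 ± 1.39 and 18.9 ± 1.98 FPKM (SD, n = 3 each). The difference of 0.27 on the log2 scale (standard error 0.080) had an unadjusted limma p of 0.00734 and stayed between 0.19 and 0.33 with each library left out.

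A stalk of the large subunit recruits the translation factors. The list of stalk regions held 6 genes, MRPL1, MRPL10, MRPL11, MRPL12, MRPL53 and MRPL54. MRPL10, the protein that anchors the copies of MRPL12, was the listed member past the unadjusted threshold with all libraries, where 6.63% of all genes tested were higher. Without agomir replicate 1, agomir replicate 2 or agomir NC replicate 3, 2 of the 6 were higher. Over all genes tested, 5.82%, 4.47% and 5.93% were higher in those fits, in that order. MRPL10 was at 20.4, 21.0 and 21.4 FPKM with the agomir, against 18.7, 17.9 and 18.7 FPKM with agomir NC. The libraries of each group lay close together and apart from the other group, at 20.9 ± 0.467 against 18.4 ± 0.447 FPKM (SD, n = 3 each). The difference was 0.18 on the log2 scale (standard error 0.051), with an unadjusted limma p of 0.00594, an adjusted p of 0.310 and a range of 0.16 to 0.20 with each library left out. Over the 6 stalk genes, 5 had a positive log2 fold change, the median was 0.10, and the range was from -0.082 to 0.18. The median lay between 0.057, without agomir replicate 2, and 0.15, without agomir NC replicate 3. Their mean levels ran from 8.96 to 31.0 FPKM.

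MRPL9, an elongated protein near the base of a stalk in the bacterial ribosome, was at 37.4, 39.1 and 40.3 FPKM with the agomir, against 35.0, 33.0 and 37.1 FPKM with agomir NC. Agomir replicate 1 and agomir NC replicate 3 almost touched. This gave a log2 fold change of 0.15 (standard error 0.056, limma adjusted p = 0.393). The unadjusted p was above 0.05 without agomir replicate 2, agomir replicate 3, agomir NC replicate 2 or the variance trend. The log2 fold change lay between 0.11 and 0.19 with a library left out.

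The rim of the exit tunnel, where the growing chain meets the inner membrane, was listed with MRPL17, MRPL22, MRPL23, MRPL24, MRPL45 and MRPL47. With all libraries, none of the 6 passed the unadjusted threshold in limma in either direction, where 6.63% of all genes tested were higher and 4.31% lower. However, 2 were higher without agomir replicate 2, 1 without agomir replicate 3 and 1 without agomir NC replicate 1. Over all genes tested, 4.47%, 5.24% and 6.68% were higher in those fits, in that order. The log2 fold changes of the 6 genes ran from -0.057 to 0.14, 5 of them positive. Their median was 0.079, which lay between 0.041 and 0.13 with a library left out. In level they spanned the whole family, from 4.77 FPKM for MRPL22 to 49.4 FPKM for MRPL17.

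MRPL30, another protein with a bacterial counterpart, had the most negative log2 fold change of the large subunit genes with such a counterpart, at -0.10 (standard error 0.14). It was at 12.2, 9.76 and 11.02 FPKM with the agomir, against 14.4, 9.33 and 12.2 FPKM with agomir NC. The agomir NC libraries enclosed all the agomir libraries. Without agomir NC replicate 1 the log2 fold change was 0.037, and without agomir NC replicate 2 it was -0.26, so its sign rested on agomir NC replicate 1.

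The central protuberance, which touches the head of the small subunit and the transfer RNAs, was listed with 8 genes, MRPL18, MRPL27, MRPL38, MRPL40, MRPL46, MRPL48, MRPL55 and MRPL58. Of these, 2 were higher at an unadjusted limma p under 0.05, 0 were lower, 6 had a positive log2 fold change, and the median was 0.099. Over all genes tested, 6.63% were higher, 4.31% were lower and 55.1% were positive. None of the 8 was higher after median-ratio scaling, without the variance trend or without agomir replicate 3. MRPL27, which in bacteria reaches toward the catalytic center, was at 40.5, 36.2 and 40.7 FPKM with the agomir, against 35.0, 29.3 and 37.5 FPKM with agomir NC. Agomir replicate 2 lay below agomir NC replicate 3. The log2 fold change of 0.21 (standard error 0.087, limma adjusted p = 0.432) was 0.11 without agomir NC replicate 2. Its unadjusted p was above 0.05 without that library, agomir replicate 1 or agomir replicate 3. The same held with no filter, after median-ratio scaling and without the variance trend. MRPL46 was at 9.45, 10.6 and 10.96 FPKM with the agomir, against 9.32, 9.41 and 8.53 FPKM with agomir NC. Agomir replicate 1 lay just above the agomir NC libraries, and the log2 fold change was 0.18 (standard error 0.076, limma adjusted p = 0.442). In 4 of the 6 fits without a library the unadjusted p was above 0.05, the fits without agomir replicates 2 and 3 and agomir NC replicates 1 and 3, and over the 6 fits the log2 fold change lay between 0.13 and 0.24.

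MRPL58, a ribosome-bound peptidyl-tRNA hydrolase that frees stalled chains, was at 27.2, 28.1 and 28.5 FPKM with the agomir, against 28.9, 22.7 and 21.9 FPKM with agomir NC. Agomir NC replicate 1 lay above every agomir library, and the other agomir NC libraries lay well below them. With all libraries its log2 fold change was 0.197 (standard error 0.093), at an adjusted limma p of 0.478. Without agomir NC replicate 1 the difference was 0.32 and limma's adjusted p 0.156, the lowest for any named member in any setting, but without agomir NC replicate 3 the difference was 0.12 and without agomir NC replicate 2 it was 0.15. MRPL40 went the other way, at 22.1, 21.1 and 21.7 FPKM with the agomir, against 23.5, 22.4 and 23.1 FPKM with agomir NC. MRPL40 was lower in each agomir library than in any agomir NC library, but the log2 fold change of -0.085 (standard error 0.050) did not pass the unadjusted threshold in limma, and its adjusted p was 0.572. The gene overlaps HIRA in the RefSeq gene table.

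Outside the bacterial core, 19 MRPL genes encode proteins that mitochondrial ribosomes gained. Of these, 4 were higher at an unadjusted limma p under 0.05 (MRPL37, MRPL39, MRPL46 and MRPL49), 0 were lower, and 13 had a positive log2 fold change, with a median of 0.096, beside 6.63% higher and 4.31% lower over all genes tested. The number higher was 0 without the variance trend, 2 after median-ratio scaling, and 1 with the block on replicate number, after quantile normalization and after cyclic loess normalization. Over all genes tested, 6.12%, 5.29%, 5.94%, 5.6% and 5.29% were higher in those fits, in that order. Without agomir NC replicate 2 the number higher was 1, with 2 lower and a median of 0.058, where 5.28% of all genes tested were higher and 4.29% lower. MRPL37 was at 34.5, 35.6 and 35.7 FPKM with the agomir, against 34.2, 30.9 and 29.03 FPKM with agomir NC. Agomir NC replicate 1 came close to the agomir libraries without reaching them. On the log2 scale, the groups differed by 0.17 (standard error 0.062, limma adjusted p = 0.385). MRPL39 was at 14.1, 15.9 and 16.8 FPKM with the agomir, against 14.6, 13.6 and 12.6 FPKM with agomir NC, and agomir replicate 1 lay below agomir NC replicate 1. Its fitted log2 difference was 0.19 (standard error 0.079, limma adjusted p = 0.421). MRPL49 was at 19.9, 20.9 and 21.7 FPKM with the agomir, against 19.8, 18.9 and 18.2 FPKM with agomir NC, and agomir replicate 1 and agomir NC replicate 1 were nearly equal. The fit put the log2 fold change at 0.14 (standard error 0.058, limma adjusted p = 0.438). For each of MRPL37, MRPL39 and MRPL49, the unadjusted p was above 0.05 without agomir replicate 2, agomir replicate 3, agomir NC replicate 2 or agomir NC replicate 3. In the 10 other settings, the unadjusted limma p was under 0.05 in 9 for MRPL37, 6 for MRPL39 and 5 for MRPL49. Over all 6 fits with a library left out, their log2 fold changes lay between 0.12 and 0.23, 0.14 and 0.26, and 0.11 and 0.17, in that order.

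The remaining members with the most negative log2 fold changes in the large subunit also belonged to the gained proteins. MRPL50 was at 8.87, 8.99 and 7.64 FPKM with the agomir, against 9.51, 8.80 and 10.8 FPKM with agomir NC. Only agomir NC replicate 2 fell within the agomir range. A log2 fold change of -0.18 (standard error 0.091, limma adjusted p = 0.518) resulted, and -0.24 without agomir NC replicate 2, where the unadjusted p was under 0.05, but -0.11 without agomir replicate 3 and -0.10 without agomir NC replicate 3. MRPL41 was at 19.8, 19.6 and 23.0 FPKM with the agomir, against 22.7, 24.2 and 20.4 FPKM with agomir NC. Agomir replicate 3 stood among the agomir NC libraries. With that library the log2 difference was -0.11 (standard error 0.081), and without it -0.18, with an unadjusted limma p under 0.05, but -0.055 without agomir NC replicate 2 and -0.069 without agomir replicate 2. MRPL57 was at 16.9, 17.6 and 14.3 FPKM with the agomir, against 16.3, 18.8 and 17.4 FPKM with agomir NC, with overlapping groups. This gave a log2 fold change of -0.10 (standard error 0.085), and between -0.16 and -0.018 with a library left out, the latter without agomir replicate 3.

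The small subunit decodes the messenger RNA, and 16 MRPS genes encode proteins of it with a bacterial counterpart. Of these, 4 were higher at an unadjusted limma p under 0.05 (MRPS28, MRPS18C, MRPS9 and MRPS10) and 1 was lower (MRPS12), where 6.63% and 4.31% of all genes tested were. The median log2 fold change was 0.10, with 13 positive. With a library left out the number higher ran from 1, without agomir NC replicate 2, to 5, and the median from 0.078 to 0.12. Over all genes tested, the share higher ran from 4.47% to 6.68% in those fits. MRPS28 was at 10.6, 11.9 and 11.7 FPKM with the agomir, against 10.1, 8.10 and 9.52 FPKM with agomir NC. The groups did not overlap, with means of 11.4 ± 0.676 and 9.25 ± 1.04 FPKM (SD, n = 3 each), or 1.23-fold. This was the highest log2 fold change of the MRPS genes, 0.29 (standard error 0.088, limma adjusted p = 0.321). It stayed between 0.20 and 0.36 with each library left out.

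MRPS12, at the decoding center, where its bacterial counterpart affects the accuracy of translation, was the member with the smallest p. It was at 15.3, 14.7 and 14.5 FPKM with the agomir, against 18.1, 16.7 and 17.7 FPKM with agomir NC. All 3 agomir values lay under all 3 agomir NC values, with means of 14.9 ± 0.423 and 17.5 ± 0.689 FPKM (SD, n = 3 each), or 0.849-fold. On the log2 scale the difference was -0.23 (standard error 0.057), with an unadjusted limma p of 0.00258 and an adjusted p of 0.261. By the exact permutation test, two-sided, p was at its lower limit of 0.1. With each library left out the log2 fold change lay between -0.26 and -0.20. It was lower at an unadjusted limma p under 0.05 in every setting tried, with other members beside it after quantile or cyclic loess normalization and without agomir replicate 2, agomir replicate 3 or agomir NC replicate 2.

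MRPS18C, which overlaps ABRAXAS1 in the RefSeq gene table, was at 10.99, 10.02 and 9.67 FPKM with the agomir, against 8.497, 7.22 and 9.66 FPKM with agomir NC. Agomir replicate 3 and agomir NC replicate 3 were nearly equal. On the log2 scale, the groups differed by 0.27 (standard error 0.10, limma adjusted p = 0.398), a difference that lay between 0.16 and 0.36 with a library left out, with an unadjusted p above 0.05 without agomir replicate 1 or agomir NC replicate 2. MRPS10 was at 35.6, 38.0 and 34.5 FPKM with the agomir, against 34.4, 29.4 and 31.7 FPKM with agomir NC. Agomir replicate 3 and agomir NC replicate 1 nearly met, and the log2 fold change was 0.18 (standard error 0.065, limma adjusted p = 0.381). Without agomir replicate 2, agomir NC replicate 2 or the variance trend, the unadjusted p was above 0.05. With a library left out the log2 fold change of MRPS10 lay between 0.13 and 0.24. MRPS9, the least abundant small subunit member, was at 6.40, 6.33 and 6.33 FPKM with the agomir, against 5.28, 5.40 and 5.85 FPKM with agomir NC. Its agomir libraries were almost equal, with an SD of 0.0414 FPKM, and all lay above the agomir NC libraries. Its fitted log2 difference was 0.19 (standard error 0.073, limma adjusted p = 0.401). Its unadjusted p was under 0.05 in 1 of the 6 fits with a library left out, that without agomir NC replicate 3. The log2 fold change lay between 0.16 and 0.23 in all of them. After cyclic loess normalization the unadjusted p was also above 0.05.

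MRPS17, a protein that binds the ribosomal RNA of the subunit's body, was at 7.44, 10.5 and 8.04 FPKM with the agomir, against 9.11, 8.54 and 10.8 FPKM with agomir NC. The groups overlapped widely. The fit put the log2 fold change at -0.13 (standard error 0.13), and -0.27 without agomir replicate 2, where the unadjusted limma p was under 0.05, but -0.036 without agomir replicate 1 and -0.040 without agomir NC replicate 3.

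**Figure D3:**
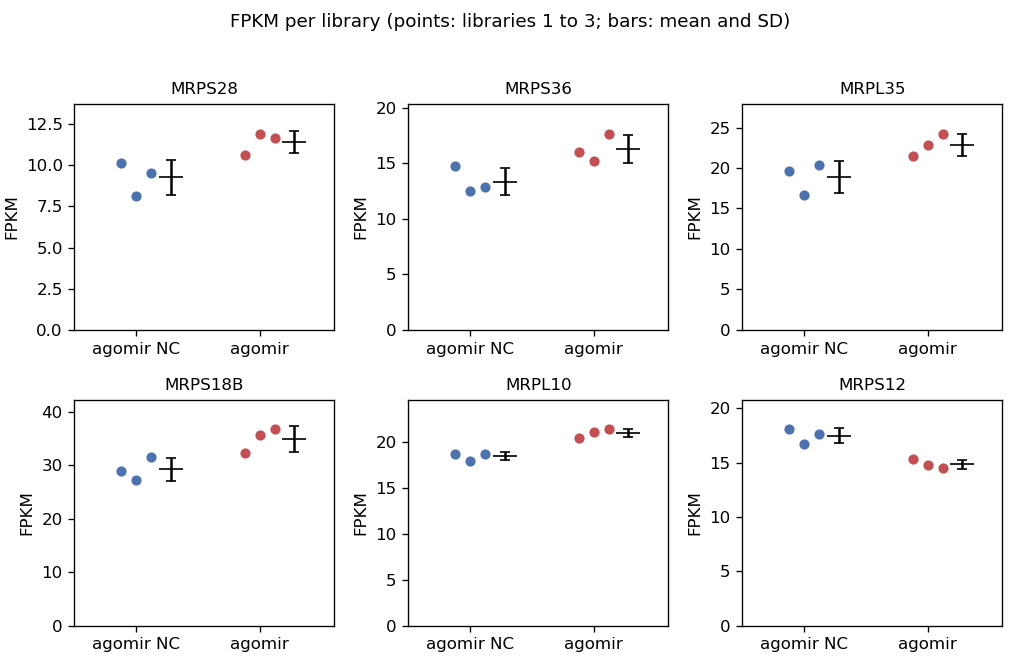
FPKM in each library (points, replicates 1 to 3 from left to right) with the mean and SD of each group for the 6 members that kept an unadjusted limma p under 0.05 in every setting tried. In MRPS12 the agomir libraries, at 14.5 to 15.3 FPKM, lie below those of agomir NC, and in the other 5 genes they lie above.

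The small subunit also has proteins without a bacterial counterpart, for which 10 genes were listed. Of these, 4 were higher at an unadjusted limma p under 0.05 (MRPS18B, MRPS27, MRPS22 and MRPS23), 0 were lower and 9 had a positive log2 fold change, with a median of 0.10, against 6.63% higher, 4.31% lower and 55.1% positive over all genes tested. The number higher was 2 after quantile or cyclic loess normalization, without the variance trend, without agomir NC replicate 2 and without agomir replicate 3, where 1 was also lower. In those fits 5.6%, 5.29%, 6.12%, 5.28% and 5.24% of all genes tested were higher, in that order. Without agomir replicate 3, 3.62% of all genes tested were lower. MRPS18B was at 32.3, 35.7 and 36.8 FPKM with the agomir, against 28.99, 27.3 and 31.6 FPKM with agomir NC. All agomir libraries lay above all agomir NC libraries, with means of 34.9 ± 2.35 and 29.3 ± 2.14 FPKM (SD, n = 3 each). Its log2 fold change of 0.25 (standard error 0.068) had the lowest unadjusted limma p of the members that were higher, 0.00477, and an adjusted p of 0.305. The value lay between 0.20 and 0.30 with each library left out.

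MRPS27, a protein with pentatricopeptide repeats, which bind RNA, was at 20.3, 22.6 and 23.4 FPKM with the agomir, against 20.2, 18.6 and 18.7 FPKM with agomir NC. Agomir NC replicate 1 came close to agomir replicate 1, and the other libraries were well apart. A log2 fold change of 0.20 (standard error 0.066, limma adjusted p = 0.347) resulted, and 0.16 without agomir replicate 3, where the unadjusted p was above 0.05. MRPS22 was at 23.8, 27.4 and 23.1 FPKM with the agomir, against 23.9, 21.1 and 20.2 FPKM with agomir NC. Agomir NC replicate 1 lay within the agomir range. This gave a log2 fold change of 0.19 (standard error 0.081, limma adjusted p = 0.442). MRPS23 was at 23.4, 23.3 and 25.3 FPKM with the agomir, against 22.7, 21.0 and 21.4 FPKM with agomir NC, without overlap, and its log2 fold change was 0.14 (standard error 0.056, limma adjusted p = 0.406). For both genes the unadjusted p was above 0.05 in 3 of the 6 fits with a library left out, those without agomir NC replicate 2, without agomir NC replicate 3 and, for MRPS22, agomir replicate 2 or, for MRPS23, agomir replicate 3. The log2 fold changes in those fits were at least 0.11 for MRPS22 and 0.10 for MRPS23. In the 10 other settings, the unadjusted limma p was under 0.05 in 4 for MRPS22 and in 6 for MRPS23.

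MRPS25 was the gene of this list with a negative log2 fold change, at -0.21 (standard error 0.16). It was at 10.1, 7.14 and 12.6 FPKM with the agomir, against 11.96, 10.7 and 11.2 FPKM with agomir NC. The agomir libraries were spread on both sides of the agomir NC libraries, and the difference was smaller than that spread. Without agomir replicate 2 the log2 fold change was 0.00090, and without agomir replicate 3 it was -0.39 with an unadjusted limma p under 0.05.

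Symbol and structure disagree for 3 MRPS genes. MRPS30 and MRPS18A are proteins of the large subunit in mammals in spite of their names. MRPS30 was at 18.4, 19.6 and 22.3 FPKM with the agomir, against 18.1, 15.4 and 16.7 FPKM with agomir NC, and no library crossed over. On the log2 scale, the groups differed by 0.26 (standard error 0.083, limma adjusted p = 0.345), and 0.18 without agomir replicate 3, where the unadjusted p was above 0.05. MRPS18A averaged 18.2 FPKM, was not past the unadjusted threshold, and had groups that overlapped. MRPS36 is known as a subunit of the oxoglutarate dehydrogenase complex of the citric acid cycle and not of the mammalian mitochondrial ribosome. It was at 16.0, 15.2 and 17.7 FPKM with the agomir, against 14.8, 12.5 and 12.8 FPKM with agomir NC. All agomir libraries lay above all agomir NC libraries, with means of 16.3 ± 1.28 and 13.4 ± 1.24 FPKM (SD, n = 3 each). The log2 fold change of 0.28 (standard error 0.081, limma adjusted p = 0.310) stayed between 0.22 and 0.35 with each library left out. So 1 of the 6 members that were past the unadjusted threshold in every setting is a ribosomal protein by symbol only.

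Gene models also bear on these values. All 78 members matched the RefSeq gene table, and 23 of them share part of their span with another gene there, among them MRPS18C, MRPS27 and MRPL49 of the 20 genes past the unadjusted threshold. Whether the counting used strand is not stated, so fragments of a member and of an overlapping gene may not be told apart, and these 23 values are less certain. Processed copies elsewhere in the genome were not examined.

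Proteins of the same ribosome whose symbols do not begin with MRP were listed as DAP3, PTCD3, CHCHD1, AURKAIP1 and GADD45GIP1. Of these 5 genes, 2 were higher at an unadjusted limma p under 0.05 and 0 were lower, against 6.63% and 4.31% of all genes tested, with a median log2 fold change of 0.18, which was 0.10 without agomir NC replicate 2. PTCD3, a small subunit protein with pentatricopeptide repeats, was at 10.9, 13.5 and 11.6 FPKM with the agomir, against 9.94, 9.33 and 10.3 FPKM with agomir NC. Its groups did not overlap, and the log2 fold change was 0.27 (standard error 0.083, limma adjusted p = 0.333). GADD45GIP1, a large subunit protein, was at 14.7, 14.5 and 13.5 FPKM with the agomir, against 11.7, 13.3 and 11.3 FPKM with agomir NC. Agomir replicate 3 and agomir NC replicate 2 lay close together, and the log2 fold change was 0.23 (standard error 0.073, limma adjusted p = 0.344). Both genes kept an unadjusted p under 0.05 in every setting tried, with log2 fold changes of at least 0.18 in the fits with a library left out.

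Assembly of the particle and modification of its RNA were listed with 25 genes. At an unadjusted limma p under 0.05, 3 were higher (RCC1L, NGRN and FASTKD2) and 1 was lower (MALSU1), where 6.63% and 4.31% of all genes tested were. The median log2 fold change was 0.048, with 15 positive, and it was 0.017 after quantile normalization, 0.021 after cyclic loess normalization and 0.0098 without agomir NC replicate 2. RCC1L, which with NGRN belongs to a module that handles the large ribosomal RNA, was at 15.0, 13.9 and 15.7 FPKM with the agomir, against 13.0, 12.4 and 11.7 FPKM with agomir NC. Its libraries were parted by group, and the log2 fold change of 0.26 (standard error 0.067, limma adjusted p = 0.278) lay between 0.22 and 0.31 with each library left out. NGRN was at 25.4, 24.5 and 25.8 FPKM with the agomir, against 21.9, 19.97 and 24.5 FPKM with agomir NC, where agomir NC replicate 3 reached almost to agomir replicate 2. Its fitted log2 difference was 0.19 (standard error 0.072), and 0.12 without agomir NC replicate 2. FASTKD2, an RNA-binding protein that acts on the same ribosomal RNA, was at 7.18, 7.95 and 7.18 FPKM with the agomir, against 6.62, 6.53 and 6.56 FPKM with agomir NC. Its agomir NC libraries were nearly equal and below all agomir libraries, with a log2 fold change of 0.17 (standard error 0.071). MALSU1, which keeps the subunits apart until the large subunit is mature, was at 5.17, 4.08 and 6.49 FPKM with the agomir, against 6.78, 6.61 and 6.81 FPKM with agomir NC. All agomir libraries were below, and 1 of them, agomir replicate 3, only just. The log2 fold change of MALSU1 was -0.35 (standard error 0.13), and it was -0.20 without agomir replicate 2 and -0.51 without agomir replicate 3. For NGRN, FASTKD2 and MALSU1 the unadjusted p was above 0.05 in at least 4 of the 6 fits with a library left out.

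Translation factors and related proteins were listed with 15 genes, of which 14 matched, and MTRFR is not analysed here. The median log2 fold change was -0.018, with 6 genes positive, though the median was above 0 in 4 of the 6 fits with a library left out. At the gene level, 1 was higher and 0 were lower at an unadjusted limma p under 0.05, against 6.63% and 4.31% of all genes tested. Without agomir NC replicate 2, 1 was lower, against 4.29% of all genes tested. The gene that was higher was OXA1L, the insertase to which the ribosome docks at the inner membrane, at 52.3, 54.3 and 51.8 FPKM with the agomir, against 49.6, 47.2 and 47.8 FPKM with agomir NC. The groups did not overlap, and the log2 fold change was 0.13 (standard error 0.044, limma adjusted p = 0.362), with the unadjusted p above 0.05 without agomir replicate 2. The elongation factor gene TUFM was the most abundant of the list, at 55.7, 52.5 and 50.2 FPKM with the agomir, against 57.2, 52.8 and 53.0 FPKM with agomir NC, with overlapping groups.

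The list of mitochondrial DNA transcription and replication held 9 genes, among them TFAM and POLRMT. With all libraries, 0 were past the unadjusted limma threshold in either direction, where 6.63% of all genes tested were higher and 4.31% lower. The median log2 fold change of the 9 genes was 0.020. It became -0.030 without agomir replicate 2, -0.0092 without agomir NC replicate 3, -0.0012 after quantile normalization and -0.0095 after cyclic loess normalization. In single fits, 1 gene was lower without agomir replicate 3, 1 was lower without agomir NC replicate 3, and 1 was higher without agomir NC replicate 2. Over all genes tested, the matching shares were 3.62%, 3.08% and 5.28%, in that order. Levels of the 9 genes were low, with a median of 4.83 FPKM. The protein genes of mitochondrial DNA itself, whose messages the ribosome translates, were not analysed here, since none of their 13 symbols matched.

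Regulators of nuclear genes for mitochondria were listed with 9 genes (NRF1, GABPA, GABPB1, PPARGC1A, PPARGC1B, PPRC1, ESRRA, YY1 and MYC). All 9 had a positive log2 fold change, with a median of 0.060, but 8 did after quantile normalization, 7 after cyclic loess normalization and 6 without agomir NC replicate 1, against 55.1% of all genes tested. The median was 0.12 without agomir replicate 1 and 0.14 without agomir NC replicate 1. At an unadjusted limma p under 0.05, 2 were higher, against 6.63% of all genes tested, and none was without agomir replicate 2 or agomir replicate 3. PPARGC1B, a coactivator, was at 1.02, 1.06 and 0.974 FPKM with the agomir, against 0.723, 0.772 and 0.722 FPKM with agomir NC. Its groups were apart at a low level, where the pseudocount makes the log2 fold change of 0.29 (standard error 0.13) an understatement, and the unadjusted limma p of 0.0423 was above 0.05 with any library left out. MYC, a transcription factor that drives ribosome production, was at 11.6, 11.9 and 11.8 FPKM with the agomir, against 10.1, 10.5 and 10.8 FPKM with agomir NC. All its agomir libraries lay above, and the log2 fold change was 0.16 (standard error 0.059, limma adjusted p = 0.381), with the unadjusted p above 0.05 without agomir replicate 2, agomir replicate 3 or agomir NC replicate 1. NRF1 and GABPA, whose products bind the promoters of many nuclear genes for mitochondrial proteins, were at 3.75 ± 0.472 against 3.43 ± 0.596 FPKM and at 12.7 ± 0.759 against 12.5 ± 0.693 FPKM (SD, n = 3 each), differences smaller than the spread between replicates.

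Cytosolic ribosomal protein genes, whose products make up the other ribosome of the cell, were set beside the mitochondrial ones. Of 78 such genes, 76 were tested, with levels from 106 to 1972 FPKM and a median of 586 FPKM, far above the mitochondrial family. None was past the unadjusted limma threshold in either direction, where 6.63% of all genes tested were higher and 4.31% lower. Log2 fold changes were positive for 8 and negative for 68, against 55.1% positive over all genes tested. The median of the cytosolic genes was -0.055. It became -0.0098 with 32 positive after quantile normalization and -0.012 with 32 positive after cyclic loess normalization. Without agomir NC replicate 2, the library in which the mitochondrial members were lowest, 12 of the cytosolic genes were lower, against 4.29% of all genes tested, and 5 were lower without agomir replicate 1, against 4.0%. With a library left out the median ran from -0.091, without agomir NC replicate 2, to -0.0085, without agomir replicate 2, and it was -0.022 with 21 positive without agomir NC replicate 3. Median-ratio scaling gave 2 lower, quantile normalization 2 higher, cyclic loess normalization 1 higher and the block on replicate number 4 lower. Over all genes tested, the matching shares were 5.68%, 5.6%, 5.29% and 4.2%, in that order. Leaving out agomir replicate 3 gave 1 cytosolic gene higher, against 5.24% of all genes tested. Without agomir replicate 2 the positive log2 fold changes of the cytosolic genes numbered 31. As a share of each library's summed FPKM, the cytosolic genes made up 13.5%, 12.5% and 13.3% with the agomir and 13.5%, 13.0% and 13.7% with agomir NC, with overlapping groups. The mitochondrial family made up 0.412%, 0.410% and 0.424% with the agomir and 0.405%, 0.374% and 0.390% with agomir NC, where each agomir library was above each agomir NC library. Whether the families differ in their response was not tested.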

How the data were processed

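RNA sequencing of 3 bta-miR-484 agomir samples and 3 agomir NC samples was used. The authors deposited FPKM per gene and library for 23475 genes. The submitters' processing notes name fastp, HISAT2, StringTie and the build ARS-UCD 1.2, without versions, roles or order, and no source used here gives the annotation, filters or options. FPKM is normalized for transcript length and mapped fragments, so a change in a few abundant genes can shift all others, and overlapping genes can share fragments.

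The 12422 genes that averaged 0.5 FPKM or more over the libraries were taken as log2(FPKM + 0.5), which understates fold changes of low genes. Groups were compared with limma (version 3.58.1, R 4.3.3), two-sided, with a variance trend and without a replicate term, and p-values were adjusted by Benjamini-Hochberg over all genes tested. Single genes were also compared by an exact permutation test. Replicates 1 to 3 are numbered as in the sample titles.

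Members and lists were chosen with earlier results of these data known. Named with values per library were members under an unadjusted p of 0.05, the 5 largest rises and 5 largest falls in log2 fold change among MRPL genes, 3 and 3 among MRPS genes, and the 3 highest and 3 lowest means. Other genes named with values, outside the members, and those listed for single settings were chosen after their values were seen. Lists were written from textbook knowledge. Gene overlaps came from the RefSeq table of ARS-UCD 2.0, without coordinates. Alternatives were other pseudocounts, filters and scalings, no variance trend, array weights, a replicate block and each library left out.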

Additional observations from a re-analysis of the deposited data

How the results depend on the processing

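No member passed an adjusted p of 0.05 in limma in any alternative run: other scalings (median-ratio, quantile, cyclic loess), filters (none, or a mean of 1 FPKM or more) and pseudocounts (0.1 and 1), array weights, no variance trend, a replicate block, and leaving out each library. At an unadjusted p under 0.05, the number of members higher was 19 as reported, 10 without the variance trend, and 9 to 22 with a library left out, where fewer samples entered the fit. It was 13 to 19 in the other settings. The number lower was 1 as reported, 2 after quantile normalization and 2 after cyclic loess normalization (MRPL50 beside MRPS12), and 1 to 5 with a library left out. The cause was not tested. Over all genes tested, 6.63% were higher and 4.31% lower as reported, and 6.12% and 3.94% without the variance trend. With a library left out, 4.47% to 6.68% were higher and 3.08% to 4.8% lower. In the other settings, 5.23% to 6.88% were higher and 3.45% to 5.68% lower. The median log2 fold change was positive throughout, 0.023 to 0.10 for MRPL and 0.080 to 0.13 for MRPS genes with a library left out.

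Of the members with a log2 fold change in the text, 4 changed sign, and only with a library left out: MRPL17 (-0.0039 to 0.060), MRPL22 (-0.26 to 0.14), MRPL30 (-0.26 to 0.037) and MRPS25 (-0.39 to 0.00090), none of them past a threshold as reported. PPARGC1B has no value at a mean of at least 1 FPKM. A trend with gene span was not run, because the gene table is of another build, and promoter motifs were not searched.

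Replicate numbers were shared between the groups in the labels. Deviations of same-numbered samples from their group means correlated at -0.051, 0.053 and 0.039, and not every sample correlated best with its own number. With 3 samples a group, these values cannot decide if same-numbered samples shared an animal or culture, which no source used here states. With the replicate block, 15 members (6 MRPL and 9 MRPS genes) were higher and 1 was lower, against 5.94% and 4.2% of all genes tested. All of these members were also called without the block.

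Depth is unknown, so counting error, which weighs most on the lowest members, cannot be set against the differences, and most differences were smaller than 0.2 on the log2 scale with 3 samples a group.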
